A study of Mus musculus with 8 samples.

Results

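Me1, Agps, Fads1, Scd2, Dhrs3 and Aldh1a3 encode enzymes that supply NADPH for lipid synthesis, start ether lipids, desaturate fatty acids and convert retinal. They are 6 of 14883 genes counted in single cells of the mouse mammary gland during puberty. The genes were chosen by name as lipid and retinoid enzymes of luminal cells, with their levels in these cells already known, so the levels by class below are a description. Live cells from dissected ducts and terminal end buds of 5-week mice had been sorted into wells and read by SORT-seq, which copies the 3′ end of each RNA and tags each molecule. The deposited table covers 2 plates of 4 libraries, with 96 wells in each library. The strain is given as mixed, no treatment or allele is named, and the labels used here do not tie a library to ducts, to end buds or to an animal. Nothing says that libraries come from separate mice, so a p-value here speaks only of spread among libraries, part of which could be technical.

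A well counted as a cell when it held at least 1500 transcripts and 500 genes, which kept 114 of 768 wells. Cells were luminal when the keratins Krt8, Krt18 and Krt19 together exceeded the contractile genes Acta2, Tagln and Myl9, and basal in the reverse case. This gave 42 luminal cells, 66 basal cells and 6 cells with none of these genes. Luminal cells were hormone-sensing when Prlr, the prolactin receptor, exceeded Trf, transferrin, and secretory otherwise, which gave 28 secretory and 14 hormone-sensing cells. Secretory cells came from plate 1 library 1 (7), plate 1 library 3 (9), plate 2 library 1 (3) and plate 2 library 3 (9). Hormone-sensing cells came from the same libraries (1, 3, 7 and 3). Basal cells came from plate 1 libraries 2 and 4 (8 and 7) and plate 2 libraries 2 and 4 (31 and 18), with 1 more in each of plate 1 library 3 and plate 2 library 1. No library held at least 3 cells of both the luminal and the basal class, so in that comparison effects of class and of library cannot be told apart.

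Library totals ranged from 101158 to 598625 transcripts, and the median kept cell of a library from 4872 to 21255. The median cell held 7102.5 transcripts among secretory cells, 17924 among hormone-sensing cells and 13450.5 among basal cells. Markers outside the class rule followed the names. Summed secretory markers without Trf (9 genes, among them Csn3, Lalba and Elf5) reached 197 transcripts per 10000 in secretory cells, 3.02 in hormone-sensing cells and 14.7 in basal cells. Summed hormone-sensing markers without Prlr (7 genes, among them Esr1, Pgr and Areg) were at 2.12 in secretory cells, 67.1 in hormone-sensing cells and 0.918 in basal cells. A basal list of 11 genes, which includes the contractile genes of the class rule, summed to 1.06 per 10000 in luminal and 149 in basal cells. In luminal cells 7 of its genes had transcripts, with Acta2 highest at 34. The basal keratins Krt5, Krt14 and Krt17, and Trp63, were at 0 in all 42 luminal cells. Markers of another cell type led in 1 secretory cell, 8 basal cells and all 6 unclassed cells, and 5 of those basal cells lay in plate 1 library 2. There the Fabp4-led adipocyte list summed to 30.3 per 10000 in basal cells, the highest of any basal library. Fabp4 gave 268 of the 321 transcripts of this list in basal cells, where Plin1 was at 0. An endothelial list was also highest in that library, at 13.8 per 10000, so the lists do not settle the type of these cells. In luminal cells the adipocyte list had 17 transcripts in all, with Adipoq, Retn, Plin1, Cidec, Lep, Cfd and Pck1 at 0. Below, a level is transcripts of a gene per 10000 transcripts of the summed cells of a class in a library. A molecule is counted once at its 3′ end, so levels of different genes need no correction for length.

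As background, malic enzyme turns malate into pyruvate in the cytosol and yields NADPH, which fatty acid synthesis and desaturation consume. Ether lipids are begun in peroxisomes, where the AGPS enzyme exchanges a fatty acid for a fatty alcohol. Retinal stands at a branch point, since it can be reduced to retinol for storage or oxidised to retinoic acid, the ligand of nuclear retinoic acid receptors. Luminal cells line the mammary ducts and later make milk, whose fat is made in the secretory cells, while basal cells are contractile.

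The genes lie on 5 chromosomes and all are protein-coding. In mm10 with GENCODE vM21 annotation, Me1 spans chr9:86581371-86695953 on the minus strand, Agps chr2:75832177-75931350 on the plus strand and Fads1 chr19:10182888-10196877 on the plus strand. Scd2 spans chr19:44293674-44306864 on the plus strand, Dhrs3 chr4:144892827-144928209 on the plus strand and Aldh1a3 chr7:66390890-66427517 on the minus strand. Genes that overlap Me1 (Gm38230 and the antisense A330041J22Rik), Fads1 (Mir6993) and Scd2 (Mir5114) had no line of their own in the table. The 3 genes with higher summed levels in luminal than in basal cells and an entry among the RefSeq promoters (build GRCm38.p6) are shown by the 200 bases that precede each gene start, at chr9:86695954-86696153 (minus strand), chr2:75831977-75832176 (plus strand) and chr4:144892627-144892826 (plus strand). The windows hold no annotated exon. Capitals mark CCAAT or GGGCGG on either strand.
Me1: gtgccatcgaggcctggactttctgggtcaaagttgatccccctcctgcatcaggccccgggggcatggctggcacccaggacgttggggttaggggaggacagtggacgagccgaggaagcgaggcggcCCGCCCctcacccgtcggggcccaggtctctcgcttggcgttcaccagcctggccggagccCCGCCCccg
Agps: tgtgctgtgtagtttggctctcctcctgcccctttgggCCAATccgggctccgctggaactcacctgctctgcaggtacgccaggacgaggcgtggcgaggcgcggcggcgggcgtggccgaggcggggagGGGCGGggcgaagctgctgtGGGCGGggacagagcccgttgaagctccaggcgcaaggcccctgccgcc
Dhrs3: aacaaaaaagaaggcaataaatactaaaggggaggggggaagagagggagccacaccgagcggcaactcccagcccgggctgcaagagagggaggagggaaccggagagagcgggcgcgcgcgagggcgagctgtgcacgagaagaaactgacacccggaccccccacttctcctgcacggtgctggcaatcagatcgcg

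These sequences are GC-rich: 70.5% for Me1, 72.0% for Agps and 62.0% for Dhrs3, where the median of all windows was 53.0%. Of 6 motifs searched on both strands (the TATA box TATAAA, the CCAAT box, the GC box GGGCGG, the nuclear receptor core AGGTCA, the E-box CANNTG and the GATA motif AGATAA), the Me1 window held GGGCGG at 2 places. The Agps window held GGGCGG at 2 places, CCAAT at 1 and CANNTG at 1, with no overlap between them. The Dhrs3 window held none of the 6. Among 32851 windows of this length, 31.0% held the GC box, 29.3% the CCAAT box, 58.2% the E-box, 11.4% the nuclear receptor core, 9.96% the TATA box and 7.80% the GATA motif. A match describes these letters and is no evidence of binding.

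The shared name of luminal enzymes fitted some of the genes and not others. Me1 was high in secretory and in hormone-sensing cells, and Dhrs3 was found in both. Agps was mainly a hormone-sensing gene, and Aldh1a3 mainly a secretory gene. Fads1 was found in secretory and basal cells but in no hormone-sensing cell, and Scd2 was no higher in luminal than in basal cells. The plot of levels by class and the map of single cells show these patterns gene by gene.

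**Figure D1:**
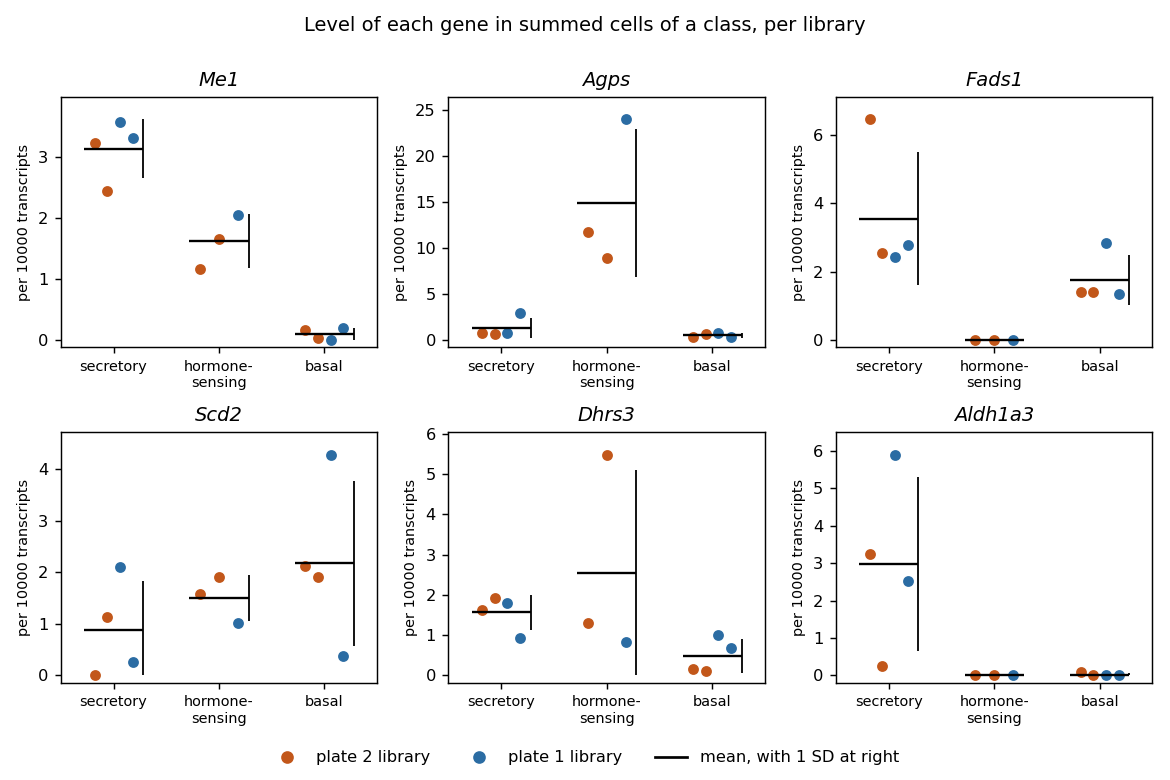
Level of each gene (transcripts per 10000, linear axis) in the summed cells of a class, 1 point per library with at least 3 cells of that class. Horizontal lines are means and vertical lines 1 SD over 4 secretory, 3 hormone-sensing and 4 basal libraries. Agps stands at 8.93 to 24.0 in hormone-sensing libraries, and Fads1 stands at 0 in all 3 of them.

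Me1, the cytosolic malic enzyme, had levels of 3.58, 3.31, 3.23 and 2.45 per 10000 in secretory cells of plate 1 libraries 1 and 3 and plate 2 libraries 1 and 3. In hormone-sensing cells it had 2.05, 1.16 and 1.66 in plate 1 library 3 and plate 2 libraries 1 and 3. Basal cells had 0, 0.193, 0.170 and 0.0284 in plate 1 libraries 2 and 4 and plate 2 libraries 2 and 4. The secretory 3.23 rests on 2 transcripts in each of 2 cells. The 3 classes did not overlap, with secretory libraries highest and basal libraries lowest, though the nearest secretory and hormone-sensing levels were 2.45 and 2.05. How many of all genes separate classes in this way is not given. Separation of libraries, here and below, therefore describes a gene and does not set it apart from other genes. Means were 3.14 ± 0.483 in secretory cells (SD, n = 4), 1.62 ± 0.444 in hormone-sensing cells (n = 3) and 0.0980 ± 0.0979 in basal cells (n = 4). Me1 was detected in 22 of 28 secretory cells (78.6%, exact binomial 95% interval 59.0 to 91.7) and in 11 of 14 hormone-sensing cells (78.6%, 49.2 to 95.3). It was detected in 12 of 66 basal cells (18.2%, 9.76 to 29.6), in each with at most 2 transcripts. With every cell thinned to 1500 transcripts, the shares were 37.4%, 22% and 3.12% in secretory, hormone-sensing and basal cells. Intervals here and below cover counting error only.

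Agps, the peroxisomal enzyme that makes the ether bond, stood at 0.737, 2.92, 0.808 and 0.614 per 10000 in secretory cells, in the same order of libraries. The 0.808 is 1 transcript in 3 cells. Hormone-sensing cells of plate 1 library 3 and plate 2 libraries 1 and 3 reached 24.0, 11.8 and 8.93, the highest level of the 6 genes in that class. In basal cells the levels were 0.714, 0.290, 0.307 and 0.711. Secretory and basal libraries overlapped, and every hormone-sensing library was above both. Of secretory cells 15 of 28 held Agps (53.6%, 33.9 to 72.5), with at most 7 transcripts in a cell. All 14 hormone-sensing cells held it (100%, 76.8 to 100), up to 146 transcripts in 1 cell, and 28 of 66 basal cells did (42.4%, 30.3 to 55.2). Thinned shares were 20.2% in secretory, 69.4% in hormone-sensing and 6.81% in basal cells. The highest secretory value, in plate 1 library 3, came from the library whose hormone-sensing cells were highest. In that library, wells with under 500 transcripts, which hold too little to count as cells, also carried Agps at 13.4 per 10000 (14 transcripts). The part of RNA from other wells in the secretory value was not tested.

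Fads1 encodes the delta-5 desaturase, which makes arachidonic acid from its precursor. Its levels were 2.42, 2.78, 6.46 and 2.54 per 10000 in secretory cells, where the 6.46 rests on 8 transcripts in 3 cells. Hormone-sensing cells had 0 of 337608 transcripts, which allows a level of up to 0.0889 per 10000 (3 transcripts over the class). None of the 14 cells held a transcript, which allows up to 21.4% of cells with one (3 of 14) and sets no limit on cells that express the gene. These were the deepest cells. Basal cells had 2.86, 1.35, 1.40 and 1.39. Secretory and basal libraries overlapped only through the basal 2.86 of plate 1 library 2, and all lay above the hormone-sensing libraries. With cells led by other types set aside that basal value was 2.01, below the lowest secretory level of 2.42. Pooled over all cells, secretory over basal levels had a ratio of 1.84 (95% counting interval 1.40 to 2.42). Of secretory cells 16 of 28 held Fads1 (57.1%, 37.2 to 75.5), and of basal cells 40 of 66 (60.6%, 47.8 to 72.4). Thinned shares were 28.3% in secretory and 17.8% in basal cells. Pooled over libraries, secretory cells were at least 30.7-fold higher than hormone-sensing cells, and hormone-sensing cells at least 16.6-fold lower than basal cells, both against a floor of 3 transcripts. With the counting error of both classes, the 95% limits were a ratio of at least 24.4 for secretory over hormone-sensing cells and of at most 0.0747 for hormone-sensing over basal cells. Fads1 was chosen for this contrast, so the difference is a description.

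**Figure D2:**
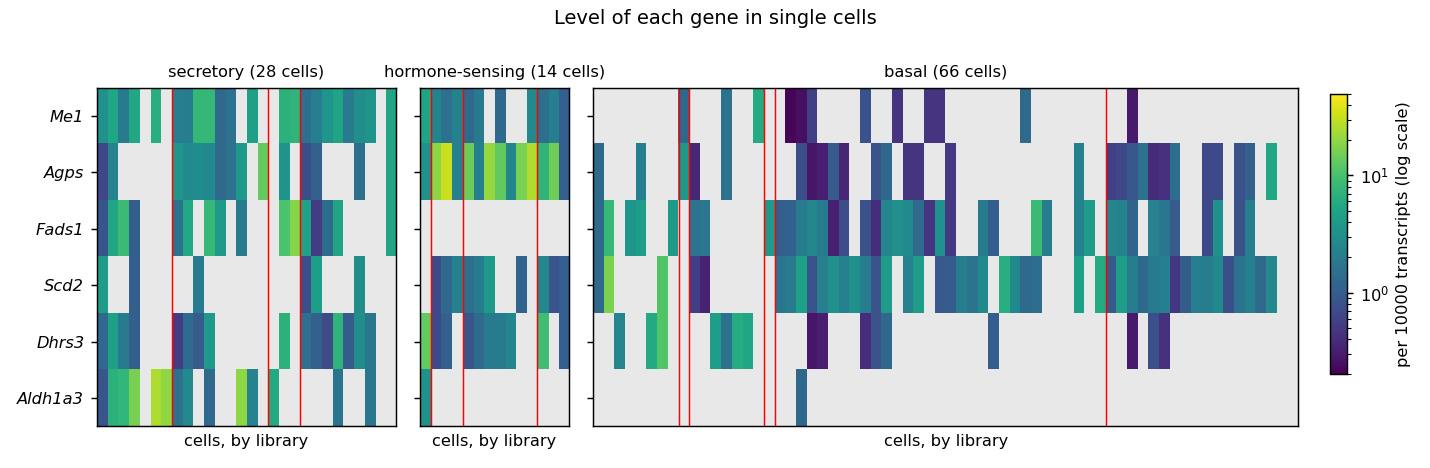
Level of each gene (rows, transcripts per 10000, colour on a log scale, grey where no transcript was found) in each of 28 secretory, 14 hormone-sensing and 66 basal cells (columns, grouped by library between red lines). The Agps row is filled in all 14 hormone-sensing cells, where the Fads1 row is empty.

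Agps and Fads1 were not mutually exclusive outside hormone-sensing cells. Of 28 secretory cells, 11 held both, 4 held Agps alone, 5 held Fads1 alone and 8 held neither. Among basal cells, 24 of 66 held both. In hormone-sensing cells the counts were 0 with both and 14 with Agps alone. Across the 11 sums of a class in a library with at least 3 cells, log2 levels of the 2 genes had a Pearson correlation of -0.87, which is a description over sums that share libraries.

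Scd2, a stearoyl-CoA desaturase that makes oleic and palmitoleic acid, had 2.10, 0.265, 0 and 1.14 per 10000 in secretory cells. The 0, of plate 2 library 1, comes from 12378 transcripts in 3 cells, where 1 transcript is already 0.808 per 10000. A single cell of plate 1 library 1 held 19 of the 35 secretory transcripts and most of those behind the 2.10. Hormone-sensing cells had 1.02, 1.58 and 1.91, and basal cells 4.28, 0.386, 2.13 and 1.90. The 3 classes overlapped, and means of 0.877 ± 0.952, 1.5 ± 0.449 and 2.18 ± 1.60 (SD, n = 4, 3 and 4 for secretory, hormone-sensing and basal cells) were within the spread of basal libraries. Few secretory cells held Scd2: 6 of 28 (21.4%, 8.30 to 41.0), beside 10 of 14 hormone-sensing cells (71.4%, 41.9 to 91.6) and 45 of 66 basal cells (68.2%, 55.6 to 79.1). Thinned shares were 6.81%, 16.6% and 21.7% in that order of classes. The basal value of 4.28 came from plate 1 library 2, where 5 of 8 basal cells were led by markers of other types. With those cells set aside that library stood at 1.00, and the basal mean was 1.36 ± 0.801 (n = 4).

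Dhrs3 reduces retinal to retinol. Its levels were 1.79, 0.928, 1.62 and 1.93 per 10000 in secretory cells and 0.839, 1.3 and 5.49 in hormone-sensing cells. Basal levels were 0.999, 0.676, 0.153 and 0.114. Secretory and hormone-sensing libraries overlapped each other, and each overlapped the basal value of plate 1 library 2. A single hormone-sensing cell of plate 2 library 3 held 42 of the 43 Dhrs3 transcripts behind the 5.49. Of secretory cells 16 of 28 held Dhrs3 (57.1%, 37.2 to 75.5), of hormone-sensing cells 10 of 14 (71.4%, 41.9 to 91.6) and of basal cells 16 of 66 (24.2%, 14.5 to 36.4). After thinning the shares were 17.1%, 23.1% and 7.56% in the same order. With cells led by other types set aside, Dhrs3 in basal cells of plate 1 library 2 was 0, and the basal mean was 0.194 ± 0.219, against 0.486 ± 0.428 with them (SD, n = 4). All 16 secretory cells with Dhrs3 also held Me1.

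Aldh1a3 oxidises retinal to retinoic acid. It had 5.89, 2.52, 3.23 and 0.263 per 10000 in secretory cells, where the 3.23 rests on 4 transcripts of 1 cell. It was at 0 in the 3 hormone-sensing libraries with at least 3 cells, and in basal cells at 0, 0, 0.0852 and 0. Every secretory library was above every hormone-sensing and basal library with at least 3 cells of its class. The 0.263, of plate 2 library 3, rests on 1 and 2 transcripts of 2 cells. Hormone-sensing cells of that library held 78368 transcripts, too few to tell their 0 from 0.263. Means were 2.98 ± 2.32 in secretory cells and 0.0213 ± 0.0426 in basal cells (SD, n = 4 each). Transcripts were found in 14 of 28 secretory cells (50%, 30.6 to 69.4), and in 1 cell each of 14 hormone-sensing (7.14%, 0.181 to 33.9) and 66 basal cells (1.52%, 0.0384 to 8.16). The lone hormone-sensing cell, with 2 of 5968 transcripts, was the only one of its class in plate 1 library 1, where secretory levels were highest. That cell is outside the separation above, and its level was above the secretory 3.23. Over all cells Aldh1a3 had 82 transcripts in secretory and 2 in hormone-sensing cells, a ratio of levels of 46.6 with a 95% counting interval of 12.5 to 391.4. Thinned shares were 27.2% in secretory, 3.14% in hormone-sensing and 0.265% in basal cells. Dhrs3 and Aldh1a3, which act on the same substrate, were both found in secretory cells, while hormone-sensing cells held 79 transcripts of Dhrs3 and 2 of Aldh1a3.

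**Figure D3:**
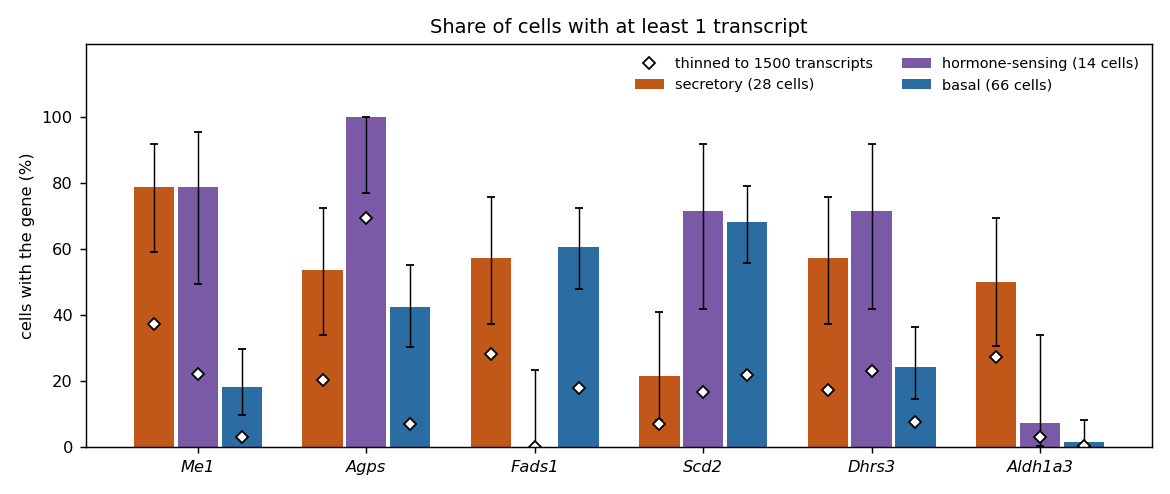
Share of cells with at least 1 transcript of each gene (bars, percent, with exact binomial 95% intervals) in 28 secretory, 14 hormone-sensing and 66 basal cells, and the share expected with each cell thinned to 1500 transcripts (diamonds). Aldh1a3 is found in 50% of secretory cells and 1.52% of basal cells, and Scd2 in 21.4% and 68.2%.

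Secretory and hormone-sensing cells were then compared over the 3 libraries that held at least 3 cells of each, with library as a block. The edgeR quasi-likelihood test called 241 of 1806 genes at a Benjamini-Hochberg adjusted p under 0.05 (13.3%), of which 7.53% were higher and 5.81% lower in secretory cells. Levels by class were known when the 6 enzymes were chosen, so their changes here are given without a test. Agps had a log2 change of -3.26 ± 0.55 (SE) and lay lower in secretory cells in 3 of 3 libraries. With 1 library left out its log2 change was -3.76 to -3.15.

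Me1 had a log2 change of 0.98 ± 0.59, with secretory above hormone-sensing cells in each of the 3 libraries. Scd2 had -1.19 ± 0.75 and Dhrs3 -0.51 ± 0.64. These errors leave room for changes of more than 1 on the log2 scale, so the values do not show that the classes were alike. For Fads1 the fitted 8.20 ± 1.13 depends on the prior count, since the hormone-sensing class is at 0. Aldh1a3 fell under the expression filter of this fit.

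Luminal cells were set against basal cells over 4 libraries each, where edgeR called 505 of 3420 genes (14.8%), 6.70% higher and 8.07% lower in luminal cells. The genes were chosen from this contrast, so their values are given without a test. Log2 changes were 4.37 ± 0.55 for Me1, 3.98 ± 0.71 for Agps and 2.64 ± 0.67 for Dhrs3 (SE). They were -0.31 ± 0.43 for Fads1 and -0.61 ± 0.52 for Scd2, both below 0 and about the size of their errors. Aldh1a3 was under the filter, and its pooled levels were 1.32 per 10000 in luminal and 0.0445 in basal cells (84 and 5 transcripts). The luminal value of Agps mixes the 2 luminal classes: its levels were 0.891, 15.3, 10.9 and 4.00 in libraries where 1 of 8, 3 of 12, 7 of 10 and 3 of 12 cells were hormone-sensing. The Dhrs3 change was 4.06 within plate 2 and 1.00 within plate 1, and 3.38 with cells led by other types set aside, a fit that plate 1 library 2 no longer entered.

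**Figure D4:**
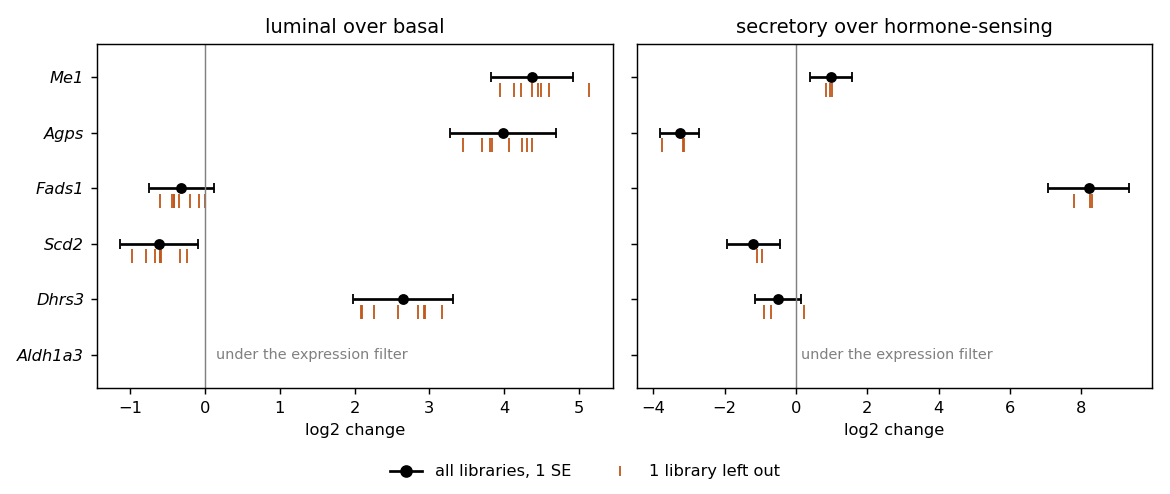
Log2 changes (points, with 1 SE) of luminal over basal cells and of secretory over hormone-sensing cells, with the value from each fit that leaves out 1 library (ticks). Me1 and Agps stay above 3 in every fit of luminal over basal cells, and Agps stays below -3 for secretory over hormone-sensing cells.

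The plates gave a comparison that the choice of genes did not use. In luminal cells, plate 2 over plate 1 (2 libraries each), edgeR called 0 of 3783 genes (0.0%), 120 genes had an unadjusted p under 0.05, and DESeq2 called 1. Aldh1a3 had 0.253 and 0.156 per 10000 in plate 2, against 5.74 and 1.04 in plate 1. Its log2 change was -4.05 ± 0.95, with an unadjusted edgeR p of 0.0033 and an adjusted p of 0.999. Without plate 1 library 3 the values were -4.85 and an edgeR adjusted p of 3.21e-06, and without plate 2 library 3 they were -3.76 and 0.00495. Each of these fits leaves a plate with 1 library, whose spread is assumed to be that of the other plate, so they give no support for a plate difference. In secretory cells alone the plates overlapped, at 3.23 and 0.263 in plate 2, against 5.89 and 2.52 in plate 1. That overlap rests on the 3.23, from 4 transcripts of 1 cell in plate 2 library 1. Plate 2 had 12 secretory and 10 hormone-sensing cells, against 16 and 4 in plate 1, and the part of this difference in the plate values was not tested.

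For the other genes the log2 changes of plate 2 over plate 1 were -0.88 ± 0.48 (Me1), -0.18 ± 1.01 (Agps), -0.75 ± 0.66 (Fads1), 0.11 ± 0.59 (Scd2) and 0.50 ± 0.69 (Dhrs3), none of them called. Agps without plate 1 library 3 had 2.96 with an edgeR adjusted p of 0.00763, where plate 1 was left with a single library, of 1 hormone-sensing cell among 8, and plate 2 alone supplied the spread. A term for class by plate, added after the data were seen, called 0 of 3420 genes (0%) in edgeR. For Dhrs3 that term was 3.08 ± 1.00, with an unadjusted p of 0.0101 and an edgeR adjusted p of 0.928.

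Genes of the same pathways were taken from 6 lists. In each comparison most counted genes of every list fell under the expression filter and were not tested. In luminal over basal cells, 28 list genes were tested, 2 were higher and 3 lower, beside 14.8% of all genes called (6.70% higher and 8.07% lower). Of 27 counted genes of fatty acid synthesis, desaturation and NADPH supply, 7 were tested. None of these 7 was called, with a median log2 change of 0.20 beside 0.00 for all genes. The same held for 7 genes of ether lipid synthesis and peroxisomes (median 0.39), 2 of the sterol pathway (0.76) and 2 lipid regulators (-0.13). Fasn, the fatty acid synthase, had -0.25 ± 0.43, and Acly, which makes cytosolic acetyl-CoA, 0.01 ± 0.33. Gnpat and Far1, which act beside Agps in ether lipid synthesis, had 0.18 ± 0.38 and 0.61 ± 0.49. Srebf1, a regulator of lipid synthesis genes, had 1.07 ± 0.42 (edgeR adjusted p = 0.123).

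Of 4 retinoid genes tested in luminal over basal cells, 1 was higher and 2 were lower, with a median of -1.50. Crabp2, which carries retinoic acid to the nucleus, had 1.79, 1.33, 1.62 and 2.28 per 10000 in secretory cells, 0.186, 0.617 and 0.255 in hormone-sensing cells and 0, 0.290, 0.222 and 0.483 in basal cells. It was higher in luminal cells, by 1.89 ± 0.53 (edgeR adjusted p = 0.0274), and the secretory libraries stood above all others. The secretory 1.62, of plate 2 library 1, rests on 2 transcripts. The call was lost without plate 1 library 4, plate 2 library 2 or plate 2 library 3, with edgeR adjusted p up to 0.124, and within plate 2 alone, at 0.0960.

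Fabp5, which binds fatty acids and retinoic acid, averaged 0.145 ± 0.168 per 10000 in secretory cells (SD, n = 4), 0 in hormone-sensing cells (n = 3) and 3.62 ± 1.19 in basal cells (n = 4), a log2 change of -5.13 ± 0.64 in luminal cells (edgeR adjusted p = 9.21e-05). Basal libraries were above all luminal ones. Adh5, an alcohol dehydrogenase, was tested without a call, at 0.17 ± 0.36 (edgeR adjusted p = 0.832). Aldh1a1, another retinal dehydrogenase, had 0 transcripts in secretory and hormone-sensing cells and 46 in basal cells, of which 26 were in plate 1 library 2 (3.71 per 10000). Most basal cells of that library were led by markers of other types, and a level of Aldh1a1 without them was not taken.

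Among 6 tested genes of fatty acid uptake and droplets, Pnpla2, the main triglyceride lipase, was higher in luminal cells by 2.90 ± 0.53 (edgeR adjusted p = 0.00189; 0.0985 within plate 1 alone). Its mean levels were 2.53 ± 1.69 in secretory, 1.29 ± 0.584 in hormone-sensing and 0.268 ± 0.149 in basal cells. Mgll, which cleaves monoglycerides, was lower in luminal cells at -2.96 ± 0.91 (edgeR adjusted p = 0.0436). Basal cells of plate 1 library 2 had 10.8 per 10000 of Mgll, and with cells led by other types set aside, which left that library too few cells to enter, the change was -0.52 with an edgeR adjusted p of 0.548. Leaving out that library gave -1.60 and 0.140, and the call was also lost without plate 1 library 1, 3 or 4 or plate 2 library 1, with edgeR adjusted p of 0.0702 to 0.111.

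**Figure D5:**
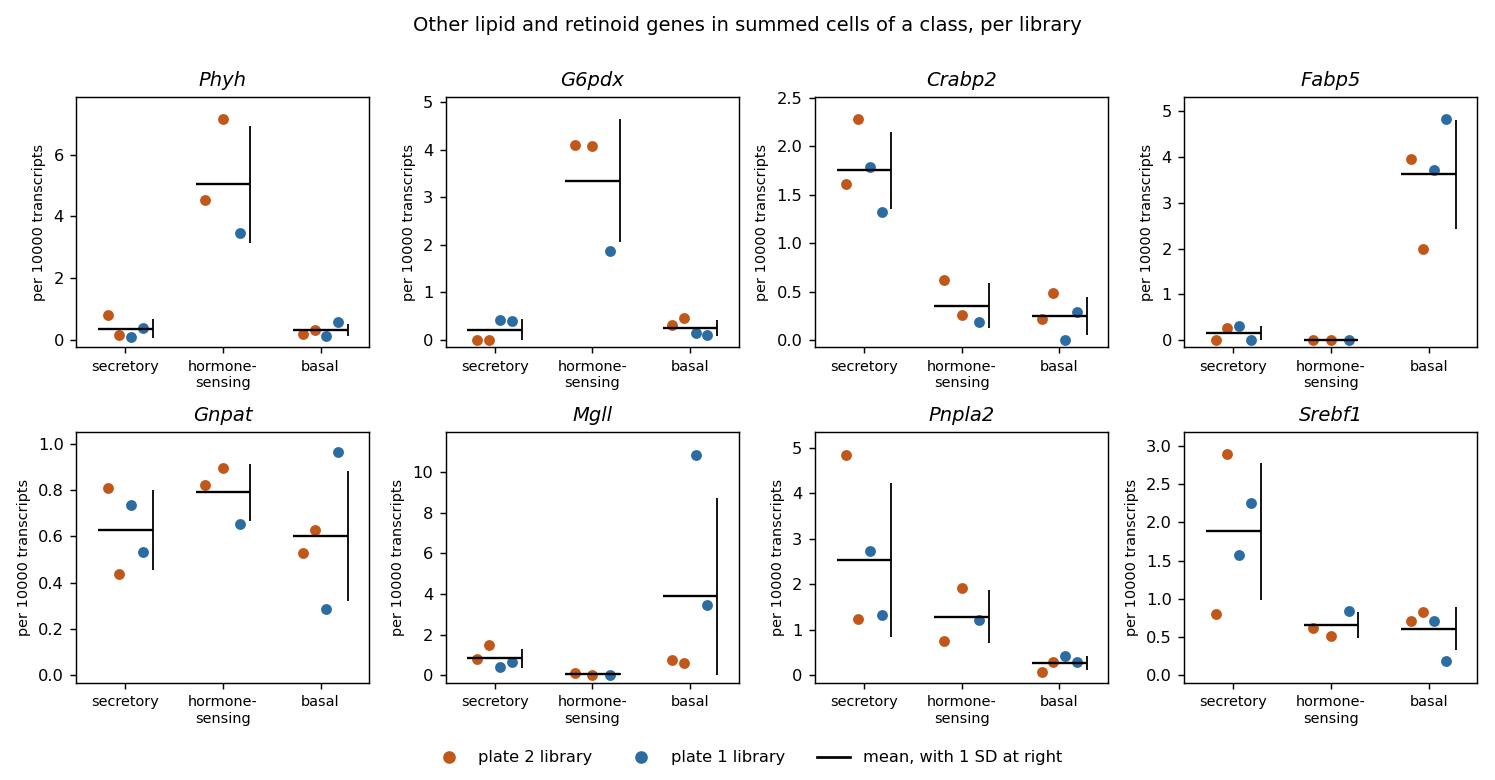
Level (transcripts per 10000) of 8 other lipid and retinoid genes in the summed cells of a class, 1 point per library with at least 3 cells, with means and 1 SD. Phyh and G6pdx are highest in hormone-sensing libraries, Crabp2 in secretory libraries, and Fabp5 in basal libraries.

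Between the luminal classes, 11 list genes were tested in secretory over hormone-sensing cells, 1 was higher and 2 were lower, beside 7.53% of all genes higher and 5.81% lower. Phyh, a peroxisomal enzyme that starts the breakdown of phytanic acid, had 0.105, 0.398, 0.808 and 0.175 per 10000 in secretory cells, against 3.45, 4.52 and 7.15 in hormone-sensing cells. Its log2 change was -3.73 ± 0.75 (edgeR adjusted p = 1.42e-05), and 0.0616 was the adjusted p without plate 2 library 1. G6pdx, which makes NADPH in the pentose phosphate pathway, had 0.421, 0.398, 0 and 0 in secretory cells, against 1.86, 4.11 and 4.08 in hormone-sensing cells. Its change was -4.00 ± 0.84 (edgeR adjusted p = 3.77e-05), and without plate 2 library 1 or 3 the adjusted p was 0.152 or 0.108. The secretory level in this fit rests on 3 transcripts of 1 library, and the log2 change was -8.12 to -2.75 with 1 library left out. Me1 and G6pdx, which both supply NADPH, had their highest levels in different luminal classes.

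Crabp2 was higher in secretory cells by 2.53 ± 0.76 (edgeR adjusted p = 0.00955). That call was lost when any of the 3 libraries was left out, with edgeR adjusted p of 0.446 without plate 1 library 3, 0.0707 without plate 2 library 1 and 0.538 without plate 2 library 3. Restricted to wells of at least 3000 transcripts and 1000 genes, where plate 2 library 1 kept 1 secretory cell and left the fit, Phyh, G6pdx and Crabp2 had edgeR adjusted p of 0.0505, 0.15 and 0.0656. Crabp2 was also not called without an expression filter (0.271) or with at least 5 cells per sum and no block (edgeR adjusted p = 0.235). Genes tested without a call included Hsd17b4 of peroxisomal beta-oxidation (-1.63 ± 0.82, edgeR adjusted p = 0.209) and Cebpb, a transcription factor (1.54 ± 0.67, edgeR adjusted p = 0.122). In plate 2 over plate 1, 0 of 40 tested list genes were called in edgeR.

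For each enzyme, the 3 genes with the most similar levels were taken from 3459 genes (3460 for Aldh1a3) by the Pearson correlation of log2 levels over the 11 sums of a class in a library. These sums share libraries and class composition, and the correlations are a description. Basp1 (0.97) and Shisa5 (0.96) were among the 3 most like Me1. Areg (0.98), an EGF receptor ligand, Itih2 (0.97) and Cited1 (0.97) were most like Agps. Fads1 was closest to Foxo1 (0.98), Npepps (0.96) and Itga8 (0.95), and Scd2 to Tmpo (0.97), Zmynd8 (0.96) and Nudt3 (0.94). Cmas (0.97), Kit (0.89) and Wfdc18 (0.88) were closest to Aldh1a3. Dhrs3 was matched less closely, with Adipor1 at 0.85, Snd1 at 0.78 and Podxl at 0.78.

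Wells just under the limit, with at least 500 but fewer than 1500 transcripts, gave few molecules of each gene and were classed by the same markers. Agps had 12 transcripts in 15 secretory wells (8.64 per 10000), 7 in 9 hormone-sensing wells (8.91) and 5 in 30 basal wells (2.02), so here the luminal classes stood at similar levels. Of the secretory wells, 10 had equal Prlr and Trf, which the rule places with secretory cells, and the other 5 wells held 5 Agps transcripts. Fads1 had 3, 0 and 3 transcripts in secretory, hormone-sensing and basal wells. Me1 had 4, 2 and 5 transcripts, and its basal level of 2.02 per 10000 was above the 0.125 of pooled basal cells above the limit.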

How the data were processed

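Sequenced molecules were counted per gene and well in 8 libraries of 96 wells. Counting settings were not given in the sources used here, where the submitters' processing notes name BWA 0.6.2-r126 and mm10. Deposited values are expected counts, estimated molecules corrected by the authors for shared tags: 533073 of 533078 values above 0 lay on the scale of a 4-base tag within 1e-06. They were rounded. There were 81 spike-in lines, left out of totals, and 0 mitochondrial lines.

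The genes, lists and tests were chosen with earlier results of these data known. Beside the 6 genes, the text names all called genes of a list up to 4, up to 2 others tested with the highest level, and the 3 most similar genes for each enzyme, except 1 called retinoid gene and 1 gene similar to Me1, which are not reported here. Fasn, Gnpat, Far1 and Aldh1a1 were added after their values were seen.

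Counts were summed per library and class (at least 5 cells for luminal against basal, 3 otherwise), filtered with filterByExpr, scaled by TMM and tested with edgeR 4.0.16 in R 4.3.3 (quasi-likelihood, Benjamini-Hochberg adjusted p under 0.05). SEs are log2 changes divided by the root of F. DESeq2 1.42.0 was an alternative, beside other filters, class margins and left-out libraries. On simulated data with log2 changes of 3, the test recovered 99.5% of changed genes for luminal against basal (3543 genes), 99.5% for secretory against hormone-sensing (1900) and 94.5% for plates (3765). The simulation gave every gene the same dispersion and no effect of library. These shares therefore do not measure power in the real sums, where the spread differs between genes and libraries. Library blocks in the comparison of luminal classes pair cells of the same library. Shares were thinned to 1500 transcripts by the hypergeometric mean. All libraries share 96 well numbers and 0 kept wells were identical. No doublet caller was run, and 1 of 42 luminal cells held 10 or more basal marker transcripts.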

Additional observations from a re-analysis of the deposited data

Results flagged for a closer look

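Single libraries stood far from the other 3 of their class, by Dixon's test, in 5 of 18 groups of 4 libraries. Chance marks about 1 in 20 such groups, but the groups overlap, since luminal sums include secretory cells. Aldh1a3 in luminal cells was 5.74 per 10000 in plate 1 library 1. Agps in secretory cells was 2.92 in plate 1 library 3, and Fads1 in secretory cells was 6.46 in plate 2 library 1, on 8 transcripts. Fads1 in basal cells was 2.86 in plate 1 library 2, where cells led by other types were most frequent, and 2.01 with those cells set aside. Aldh1a3 in basal cells was 0.0852 in plate 2 library 2, from 5 transcripts of 1 cell. The other 3 libraries were at 0 there, so any single value above 0 would be marked.

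Wells with under 500 transcripts, outside every comparison, held 83246 transcripts in 579 wells. Levels per 10000 there were 4.68 for Me1, 4.20 for Agps, 1.68 for Fads1, 2.76 for Scd2 and 1.32 for Dhrs3. Me1 was at 14.7 in plate 1 library 2 (13 transcripts) and 7.89 in plate 1 library 4 (10 transcripts), where the kept basal cells stood at 0 and 0.193. Agps was at 13.4 in plate 1 library 3, 8.15 in plate 2 library 3 and 5.79 in plate 2 library 1, and at most 2.45 in the other libraries. The source of these molecules was not tested.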

How the results depend on the processing

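The number of called genes in luminal over basal cells (505) was 1511 without an expression filter, 786 with a class margin, 835 with cells led by other types set aside (both also without plate 1 library 2, left with 3 basal cells), 163 within plate 1 and 939 within plate 2, and 436 to 848 with 1 library left out (761 without plate 1 library 1, 848 without plate 1 library 2). In secretory over hormone-sensing cells (241) it was 42 with wells of 3000 transcripts (also without plate 2 library 1), 120 within plate 2, 231 with no replicate block, and 11 to 140 with 1 library left out (11 without plate 2 library 1, 120 without plate 1 library 3, 140 without plate 2 library 3). Between plates (0) it was 1 with DESeq2, 53 without a filter and 0 to 102 with 1 library left out (102 without plate 1 library 3, 85 without plate 2 library 3, 28 without plate 1 library 1). Blocking plates by library number gave 0 calls; deviations of equally numbered libraries correlated at -0.18, and the crossed pairing, added after the data were seen, gave 37. Log2 changes turned in direction for Dhrs3 in secretory over hormone-sensing cells (0.22 without plate 2 library 3, 0.43 with 5 cells per sum and no block), with a range of -0.88 to 0.22 when 1 library was left out. Between plates, Agps turned to 2.96 and 0.32 without library 3 of plate 1 or plate 2, 0.59 with the block and 0.57 with the crossed block. There Fads1 turned to 0.49 in secretory cells alone, Scd2 to -0.51 without plate 1 library 3 and -0.016 with a class margin, and Dhrs3 to -0.12 and -0.38 without library 3 of plate 1 or plate 2. With 1 library left out the plate values ranged from -1.08 to 2.96 (Agps), -0.51 to 1.00 (Scd2) and -0.38 to 1.42 (Dhrs3). The cause was not tested. A block by library could not be fitted for luminal over basal cells. Few cells per library limit all values: a class at 0 in 14 cells allows up to 21.4% of cells with a transcript.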

Other observations

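The 6 cells with no class marker, 2 from plate 1 library 1 and 4 from plate 1 library 2, entered no comparison. Scd2 had 20 of 5719 transcripts in 1 of them and 18 of 5122 in another, the highest levels per cell of this gene. Each of these cells held 32 transcripts of nerve or Schwann cell markers, and they held 41 and 19 of fibroblast markers. Fads1 was found in 4 of the 6 cells, Dhrs3 in 2, Me1 in 1, and Agps and Aldh1a3 in 0 of 6, which allows up to 50% of cells with a transcript (3 of 6).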
